A study of Mus musculus with 18 samples.

Results

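Hepatokines are proteins that the liver secretes into blood and that act on other organs. Transcripts of 8 hepatokine genes, Gdf15, Fgf21, Tsku, Angptl8, Fetub, Ahsg, Inhbe and Lect2, were followed through a study of diet and fat gain in mice. The genes were chosen by name, with earlier results of these data known. The Ensembl identifier of each row was matched to a mouse gene symbol, and all 8 were found among the 23474 gene identifiers measured. Each was described in 18 mRNA libraries, 9 of liver and 9 of epididymal adipose tissue (eWAT, a visceral fat depot).

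All mice were male C57BL/6J (the strain label reads C56BL/6J), housed individually, and 17 weeks old at sampling. They received their diet for 12 weeks from 5 weeks of age: a normal diet (ND), or a high-fat diet in mice named prone (HP) or resistant (HR). Each tissue had 3 libraries per group. The labels speak of a random division into groups of 10 mice without a criterion for prone and resistant, so HP and HR are known by name only. Values are FPKM, fragments scaled by transcript length and by the mapped fragments of a library, which allows levels of different genes to be compared but does not give the depth.

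The 8 proteins have separate roles. GDF15 is a stress hormone of the TGF-beta family that signals through GFRAL and its partner RET in the hindbrain and lowers food intake. FGF21 is a fasting and nutrient-stress hormone that acts on fat cells through FGF receptors joined to the co-receptor beta-Klotho (Klb). ANGPTL8 takes part in the inhibition of lipoprotein lipase and is induced by feeding. Inhbe encodes the activin E subunit, whose product reaches fat through the receptor ACVR1C. Ahsg and Fetub encode fetuin A and fetuin B, abundant plasma proteins, and fetuin A inhibits the insulin receptor. Lect2 encodes a chemotactic protein that binds MET, and Tsku encodes tsukushi, a leucine-rich-repeat protein. Several of these genes are known targets of the integrated stress response, in which ATF4 and C/EBP factors share a composite DNA element.

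The 250 bases before the transcription start are shown for the 3 members that hold this composite element there and for Gdf15, the member with the largest liver difference, which lacks it. All 8 members had promoter entries in RefSeq (GRCm38.p6). Capitals mark the element, TGATGNAA or its reverse complement TTNCATCA, searched on both strands. The windows are chr7:45615491-45615740 (minus strand) for Fgf21, chr9:21835260-21835509 (plus strand) for Angptl8, chr10:127351849-127352098 (minus strand) for Inhbe and chr8:70632457-70632706 (minus strand) for the first of the listed Gdf15 starts.
Fgf21: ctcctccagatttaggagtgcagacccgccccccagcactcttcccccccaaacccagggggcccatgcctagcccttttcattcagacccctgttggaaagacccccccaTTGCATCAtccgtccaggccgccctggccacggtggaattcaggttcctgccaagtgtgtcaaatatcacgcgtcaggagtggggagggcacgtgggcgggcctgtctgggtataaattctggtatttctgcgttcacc
Angptl8: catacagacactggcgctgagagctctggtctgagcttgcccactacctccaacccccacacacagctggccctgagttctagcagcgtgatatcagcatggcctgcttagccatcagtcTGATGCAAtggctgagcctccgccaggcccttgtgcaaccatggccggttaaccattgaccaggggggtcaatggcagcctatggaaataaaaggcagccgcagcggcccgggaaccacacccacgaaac
Inhbe: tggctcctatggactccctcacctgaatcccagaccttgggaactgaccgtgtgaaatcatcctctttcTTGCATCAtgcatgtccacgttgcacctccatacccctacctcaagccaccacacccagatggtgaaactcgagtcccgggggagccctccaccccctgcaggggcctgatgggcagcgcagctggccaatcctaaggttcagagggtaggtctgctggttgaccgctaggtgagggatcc
Gdf15: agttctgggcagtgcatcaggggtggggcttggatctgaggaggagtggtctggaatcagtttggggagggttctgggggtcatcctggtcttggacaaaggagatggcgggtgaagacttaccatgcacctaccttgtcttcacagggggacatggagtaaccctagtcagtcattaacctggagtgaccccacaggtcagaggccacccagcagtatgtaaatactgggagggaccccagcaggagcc

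The element began 139 bases upstream of the start in Fgf21, 130 in Angptl8 and 181 in Inhbe. It was found for 3 of 8 members and for 3.91% of the 27025 genes with a listed promoter. An E-box, CACGTG, lay in the Fgf21 window and in that of the other Gdf15 start, and in 6.86% of genes. TATAAA, which resembles the core of a TATA box, stood 28 bases upstream in Fgf21 and 31 in Fetub and was present in 14.3% of genes. None of these motifs overlapped another in a member, and the motifs were picked with the promoters in view. A match describes letters in these windows only.

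The 8 transcripts differed widely in level in liver. Over 9 libraries Ahsg averaged 3401 FPKM and ranked 27 among all genes of the table, and Fetub averaged 294 FPKM. Lect2 averaged 128 FPKM, Inhbe 64.8, Tsku 44.8 and Angptl8 30.9 FPKM, followed by Gdf15 at 12.8 and Fgf21 at 12.7 FPKM. The upper end of this order was the same in each group, with Ahsg above Fetub and Fetub above Lect2 in all 9 libraries. The lower end changed with the group. In ND, Lect2 (61.6 ± 17.7 FPKM, SD, n = 3) and Inhbe (59.1 ± 11.6 FPKM) could not be separated beyond their spread, nor could Angptl8 (16.6 ± 14.3 FPKM), Tsku (11.0 ± 4.62 FPKM) and Fgf21 (10.6 ± 2.14 FPKM), and Gdf15 was lowest at 1.36 ± 0.490 FPKM. In HP, Tsku (69.1 ± 11.5 FPKM) reached the level of Inhbe (74.0 ± 2.31 FPKM), and Gdf15 (29.9 ± 6.95 FPKM) was above Fgf21 (19.7 ± 3.87 FPKM). In HR, Gdf15 (7.09 ± 0.305 FPKM) and Fgf21 (7.63 ± 4.27 FPKM) did not differ beyond their spread.

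The smallest steps of low values put the depth of the liver libraries at 0.883 to 1.09 of that of ND 2. Their hepatocyte markers summed to 37590 to 50804 FPKM except in HP 3, where the sum was 19575 FPKM because albumin (Alb) is listed at 0. Alb was 21466 to 28319 FPKM in the other 8 liver libraries. Among markers of other cells, 8 adipocyte genes summed to 48.8 to 76.3 FPKM in ND, 131 to 176 in HP and 57.6 to 67.2 in HR, mostly Fabp4 and Cidec. Sums that did not overlap between HP and ND in liver were also those of cholangiocyte (51.6 to 113 against 32.4 to 44.1 FPKM), erythroid (136 to 224 against 102 to 124 FPKM), endothelial (10.2 to 16.0 against 20.5 to 25.1 FPKM) and, at under 3 FPKM, B cell and mesothelial markers. At most 2 of the 5 cholangiocyte genes reached 1 FPKM in any liver library. Only Sox9 and Spp1 of them were high enough to be tested, and Spp1 is also listed as an inflammation and injury gene. The cholangiocyte sum thus describes few genes, and a change in these cells was not tested. Stellate cell or fibroblast markers summed to 80.6 to 107 FPKM in ND, 96.6 to 153 in HP and 47.0 to 74.1 in HR. The part of these cells in the members' differences was not tested. The defining adipocyte gene Adipoq was at 0 in 7 of the 9 liver libraries and at most 1.40 FPKM. Skeletal muscle genes reached 98.9 FPKM in HP 2 and 19.9 in HP 3, against less than 1 FPKM elsewhere in liver. In bulk tissue, fewer cells of a type and less RNA per cell cannot be told apart. In eWAT, ND 1 and HR 2 stood apart, with spermatid transcripts at 92413 and 11231 FPKM and adipocyte markers at 4173 and 5325 FPKM against 16760 to 31831 FPKM in the other 7 libraries. Of these 7, ND 3 and HP 1 held spermatid transcripts at 2282 and 1738 FPKM, against 7.47 to 128 in the rest, and HP 2 held epididymis transcripts at 1287 FPKM. Each test of a member in eWAT is given over 9 libraries and over the 7 without ND 1 and HR 2.

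Gdf15 had separate levels in all 3 liver groups. It was at 1.09, 1.05 and 1.92 FPKM in the 3 ND libraries, 37.9, 26.0 and 25.8 FPKM in HP and 6.83, 7.02 and 7.42 FPKM in HR. No library of a group reached the range of another. HP exceeded ND 22.1-fold in mean FPKM, a difference of 3.71 on the log2(FPKM + 1) scale (SE 0.18, limma adjusted p = 3.5e-06), and this was the smallest p of the 10633 genes tested. HR exceeded ND by 1.8 on that scale (limma adjusted p = 0.00086), and HP exceeded HR by 1.91 (limma adjusted p = 0.00062). All 3 calls were kept in each of the 18 alternative analyses of that comparison.

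Tsku was high in both high-fat groups. It was at 5.71, 14.3 and 13.0 FPKM in ND, 71.7, 56.5 and 79.1 FPKM in HP and 45.2, 52.1 and 65.5 FPKM in HR. Every HP and HR library lay above every ND library, whereas HP and HR overlapped. On the log2(FPKM + 1) scale the difference was 2.62 for HP against ND (SE 0.28, limma adjusted p = 0.00023) and 2.28 for HR against ND (limma adjusted p = 0.0030). HP minus HR was 0.35 (SE 0.28, limma adjusted p = 0.415). Both calls against ND were kept in all 18 alternatives, and HP against HR passed in none.

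Lect2 was graded like Gdf15, with smaller differences. It was at 54.9, 81.7 and 48.3 FPKM in ND, 193, 239.8 and 190.04 FPKM in HP and 125, 100.3 and 118 FPKM in HR. The 3 groups did not overlap. On the log2(FPKM + 1) scale HP exceeded ND by 1.76 (SE 0.19, limma adjusted p = 0.00024), HR exceeded ND by 0.91 (limma adjusted p = 0.0286) and HP exceeded HR by 0.85 (limma adjusted p = 0.0197). The call for HP against ND was kept in all 18 alternatives. The other calls were each kept in 12 of 18: HR against ND was lost without any of ND 1, ND 3, HR 1, HR 2 and HR 3 (limma adjusted p 0.0521 to 0.119), and HP against HR without HP 2, HR 2 or HR 3 (limma adjusted p 0.0536 to 0.0851). With no filter on low values both were lost as well (limma adjusted p = 0.0683 and 0.0524).

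Angptl8, the feeding-induced gene, varied within groups. It was at 7.66, 33.0 and 9.01 FPKM in ND, 57.2, 55.9 and 23.4 FPKM in HP and 31.4, 23.2 and 36.9 FPKM in HR. The ND 2 library was above HP 3 and above 2 of 3 HR libraries, so the groups overlapped. HP exceeded ND by 1.59 on the log2(FPKM + 1) scale (SE 0.48, limma adjusted p = 0.0275). That call was lost without ND 1, ND 3, HP 1 or HP 2 (limma adjusted p 0.0767 to 0.104) and with no filter on low values (0.0754). HR minus ND was 1.11 (limma adjusted p = 0.229) and reached 1.73 without ND 2 (limma adjusted p = 0.0243). HP minus HR was 0.48 (SE 0.48, limma adjusted p = 0.514). Angptl8 lies within Dock6 on the opposite strand, without shared exons. No source used here gives the strand setting of the counting, so reads from unspliced Dock6 RNA over Angptl8 cannot be told apart from its own, and Dock6 was at 2.51 to 5.14 FPKM in liver.

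Fgf21 was higher in HP than in either other group. It was at 13.0, 8.98 and 9.83 FPKM in ND, 15.2, 22 and 21.9 FPKM in HP and 12.5, 5.59 and 4.75 FPKM in HR. All HP libraries lay above all others, and the HR 1 library lay within the range of ND. HP exceeded HR by 1.35 on the log2(FPKM + 1) scale (SE 0.28, limma adjusted p = 0.0175) and ND by 0.83 (SE 0.28, limma adjusted p = 0.0451). HR minus ND was -0.52 (SE 0.28, limma adjusted p = 0.339). The call against ND was lost without ND 1, ND 2, ND 3, HP 2 or HP 3 (limma adjusted p 0.0565 to 0.141). It was kept in 7 of 18 alternatives and was also lost with a pseudocount of 0.1 (limma adjusted p = 0.0523), quantile normalization (0.0545), rescaling to the same sum (0.0922) and no filter on low values (0.104). The call against HR was lost without HP 2, HP 3, HR 2 or HR 3 (limma adjusted p 0.0549 to 0.0729) and with no filter (0.0531).

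The 2 fetuins and Inhbe, all abundant in liver, passed no test. Fetub was at 218, 272 and 214 FPKM in ND, 295, 354 and 277 FPKM in HP and 417, 295 and 308 FPKM in HR. All HP and HR libraries were above ND, but the differences of 0.39 and 0.52 on the log2(FPKM + 1) scale had limma adjusted p = 0.0908 and 0.118. Without ND 2, HP minus ND for Fetub was 0.50 (limma adjusted p = 0.0464).

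Ahsg, the most abundant member, was at 3073, 3031 and 3184 FPKM in ND, 3091, 3304 and 3181 FPKM in HP and 4357, 3673 and 3720.0 FPKM in HR. ND and HP overlapped, and HR lay above both. HP minus ND was 0.04 (SE 0.14, limma adjusted p = 0.831), HR minus ND 0.33 (limma adjusted p = 0.212) and HP minus HR -0.29 (limma adjusted p = 0.177) on the log2(FPKM + 1) scale. The last reached -0.48 (limma adjusted p = 0.0404) when libraries were rescaled to the same sum and -0.50 (limma adjusted p = 0.0291) with the correction for transcript length and GC content. Exons of Ahsg overlap those of the antisense gene Gm30505, and their reads cannot be told apart.

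Inhbe was at 53, 72.5 and 51.8 FPKM in ND, 71.6, 74.3 and 76.2 FPKM in HP and 63.2, 71.8 and 48.7 FPKM in HR. The ND 2 library stood among the HP libraries. HP minus ND was 0.34 on the log2(FPKM + 1) scale (SE 0.16, limma adjusted p = 0.137), HR minus ND 0.05 (limma adjusted p = 0.897) and HP minus HR 0.29 (limma adjusted p = 0.258). Without ND 2, HP minus ND was 0.49 (limma adjusted p = 0.0356).

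**Figure D1:**
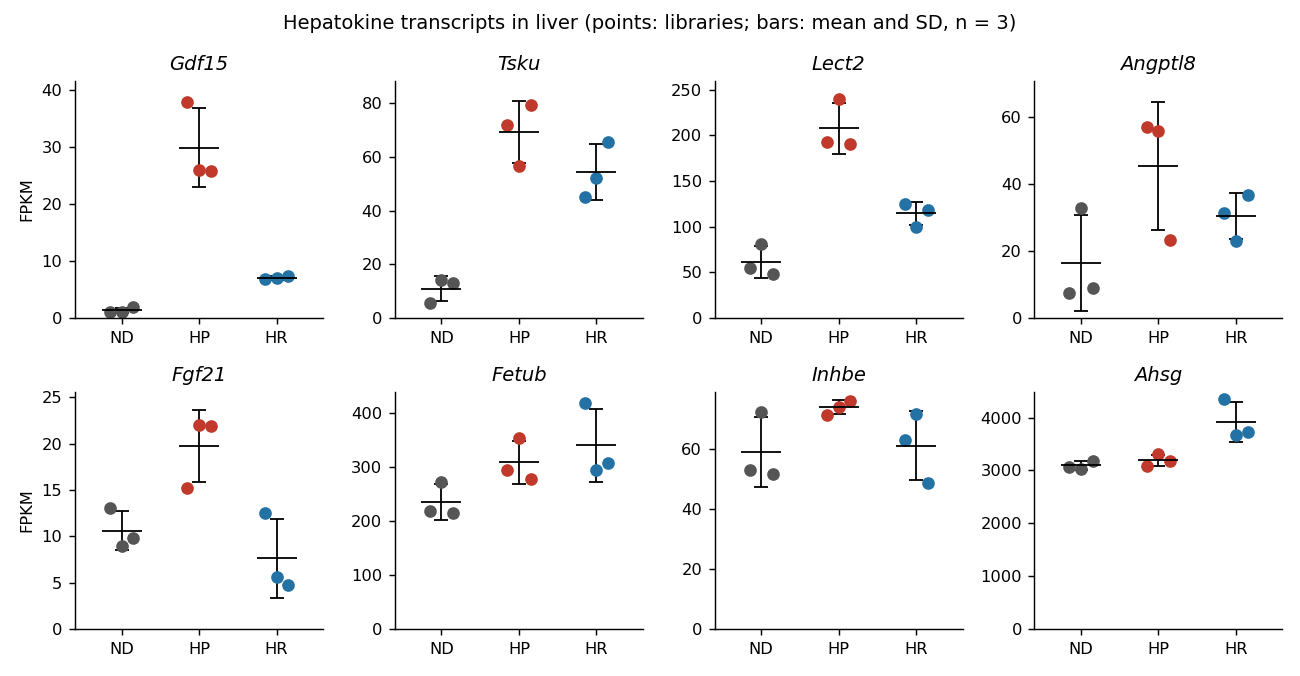
FPKM of the 8 members in each liver library (points) by group, with the mean and SD of 3 libraries (bars) and each vertical axis starting at 0. Gdf15, Lect2 and Tsku in HP lie wholly above ND, while Angptl8 and Inhbe in ND include a high library, ND 2.

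Counted together, 5 of the 8 members rose in HP against ND in liver (Gdf15, Tsku, Lect2, Angptl8 and Fgf21) and none fell, where 31.7% of the 10633 genes tested were called in either direction and 17.6% rose. In HR against ND 3 members rose (Gdf15, Tsku and Lect2), where 3.24% of genes were called and 2.28% rose. In HP against HR 3 members rose (Gdf15, Fgf21 and Lect2), where 11.1% of genes were called and 7.2% rose. The median log2 difference of the members was 1.21 in HP against ND, 0.72 in HR against ND and 0.41 in HP against HR, with medians over all genes of -0.02, 0.01 and -0.03. The comparisons share libraries, so they are not independent. The members were chosen with earlier results of these data known, so their counts are a description and not a test against the shares over all genes. Groups did not overlap with the first group higher for 5 members in HP against ND (23.6% of genes), 5 in HR against ND (14.8%) and 3 in HP against HR (17%), where HR was higher for Ahsg alone (17% of genes).

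**Figure D2:**
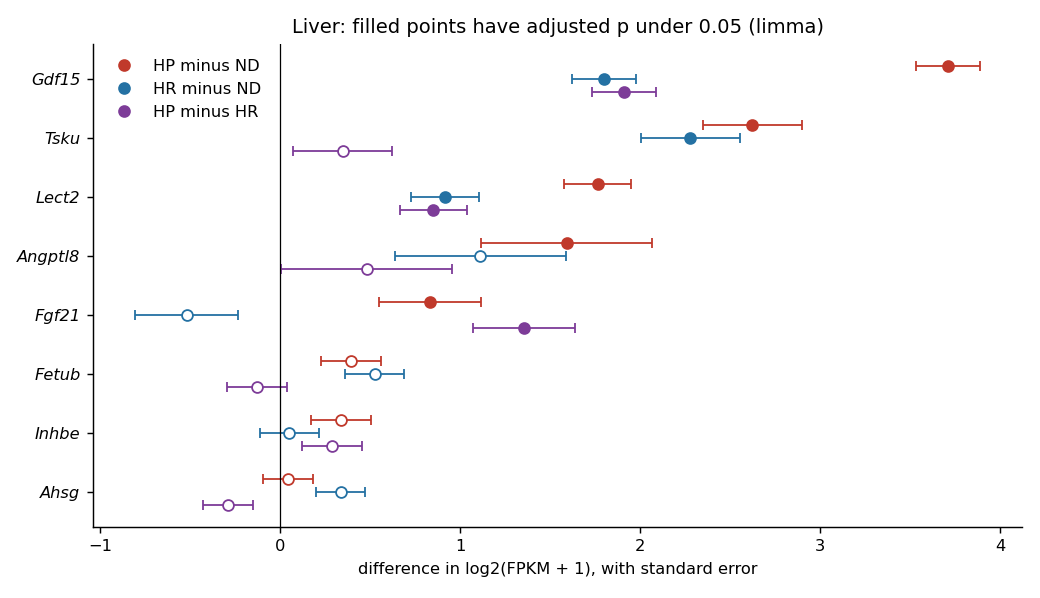
Differences in log2(FPKM + 1) between liver groups (horizontal axis, points with standard errors) for each member; filled points have limma adjusted p under 0.05. Gdf15 and Lect2 are filled in all 3 comparisons, Tsku in both against ND, and Fgf21 in both with HP.

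Across liver genes the HP minus ND difference ran with transcript length (Spearman rho -0.49 across 10553 genes) and with GC content (0.25), given as descriptions since genes are not independent. Members were placed unevenly on these scales: Lect2, Angptl8 and Fgf21 are among the shortest (837, 865 and 951 bases, against a median of 3260), and Gdf15 and Angptl8 are GC-rich (61.3% and 60.6%, against a median of 49.5%). After each library was corrected for smooth trends in both, HP minus ND on the log2 scale was 3.21 for Gdf15, 2.54 for Tsku and 1.29 for Lect2, and these calls were kept. The values for Angptl8 and Fgf21 were 0.92 (limma adjusted p = 0.133) and 0.29 (limma adjusted p = 0.482), and these calls were lost. In HP against HR, Fgf21 moved to 0.98 (limma adjusted p = 0.0552) and Lect2 to 0.49 (limma adjusted p = 0.0501), while Gdf15 stayed called at 1.55. Gdf15 and Tsku kept every liver call under this correction.

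**Figure D3:**
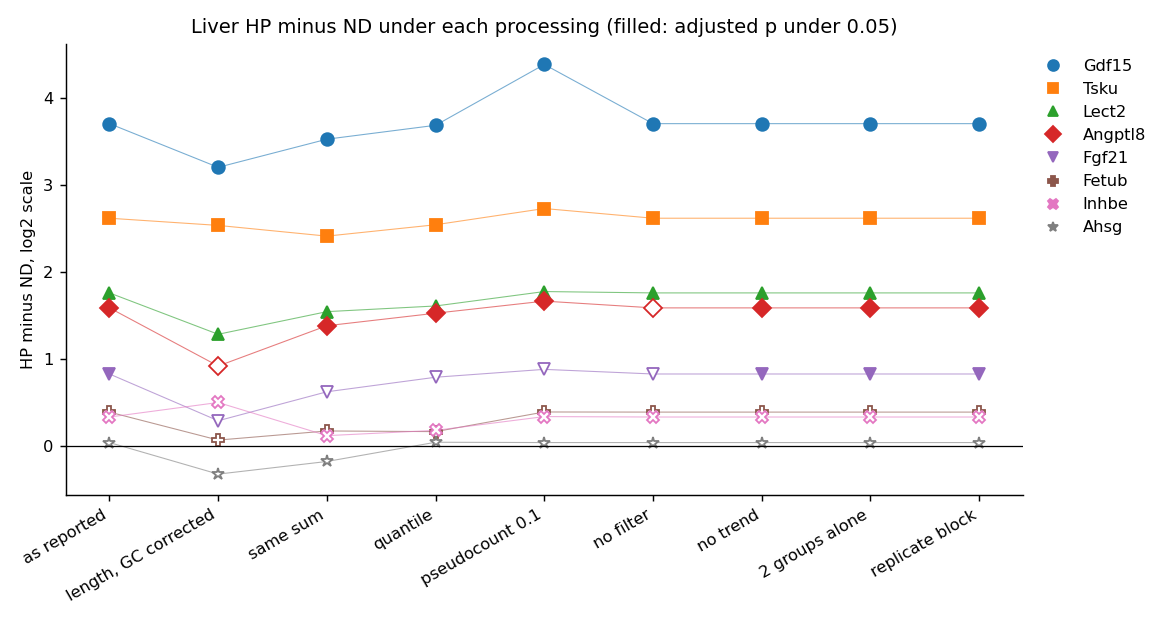
HP minus ND in liver on the log2 scale (vertical axis) for each member under the reported analysis and 8 alternatives (horizontal axis); filled points have limma adjusted p under 0.05. Gdf15, Tsku and Lect2 are filled throughout, whereas Fgf21 and Angptl8 are open after the length and GC correction.

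Receptors and partners were taken from a list of 29 genes. In HP against ND in liver 1 of 22 tested rose and 9 fell, beside 17.6% and 14.1% of all genes. The median was -0.31 (all genes -0.02), and 3 or 4 fell without ND 1 or ND 3. The counts, the median and the single genes of this list are given without the length and GC correction. Across liver genes HP minus ND ran lower with longer transcripts (Spearman rho -0.49). The beta-Klotho gene Klb was at 9.80, 7.45 and 11.0 FPKM in ND, 4.16, 3.15 and 4.05 FPKM in HP and 4.43, 6.12 and 7.12 FPKM in HR. Its HP and ND libraries did not overlap, and it fell by 1.11 in HP on the log2(FPKM + 1) scale (SE 0.18, limma adjusted p = 0.0020). HR minus ND was -0.60 (limma adjusted p = 0.105). None of the FGF receptors passed against ND, and Fgfr4, the main one in hepatocytes, differed by -0.25 (limma adjusted p = 0.200). Gfral was listed at 0 in all 18 libraries.

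Lpl, the lipase gene, and Angptl4, which encodes another of its inhibitors, did not pass in HP against ND. The LECT2 receptor gene Met fell by 0.68 in HP against ND (limma adjusted p = 0.0052) and by 0.58 against HR (limma adjusted p = 0.0248). Insr, the insulin receptor that fetuin A inhibits, fell by 0.49 (limma adjusted p = 0.0104). Among activin genes, Inhba fell by 0.88, Inhbc by 0.42, the type 2 receptor Acvr2a by 0.65 and the activin-binding follistatin Fst by 0.73 (limma adjusted p 0.0034 to 0.0350). In HR against ND, where 3.24% of all genes were called, only Fst of this list was called, and it fell by 0.84 (limma adjusted p = 0.0092).

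Genes of pathways that are known to drive members were counted from further lists, all written with earlier results of these data known. The part of these pathways in the members' differences was not tested. Their counts in HP against ND stand beside 17.6% of all genes that rose and 14.1% that fell. In HR against ND 3.24% of all genes were called and 2.28% rose, and in HP against HR 11.1% were called and 7.2% rose. Counts, medians and single genes of these lists are given without the length and GC correction. HP minus ND in liver ran lower with longer transcripts (Spearman rho -0.49). Of 16 tested integrated stress response genes, 10 rose and 1 fell in HP against ND (median 0.54). Cebpb, a C/EBP factor of the composite element, was at 7.66 to 8.15 FPKM in ND, 24.4 to 36.6 in HP and 10.9 to 12.6 in HR and rose by 1.73 (limma adjusted p = 7.9e-05). Ddit3 rose by 0.74 and Nupr1 by 1.15, while Atf4 rose by 0.52 (limma adjusted p = 0.0278) and Cth fell by 0.87. In HR against ND 2 of 16 rose (Shmt2 and Trib3) and 1 fell (Atf5), and in HP against HR 6 rose, among them Cebpb, Ddit3 and Nupr1.

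PPAR alpha, which drives Fgf21 in fasting, had targets that fell in HP, and a link of these falls to Fgf21 was not tested. Of 18 PPAR alpha and fasting genes, 10 fell and 0 rose in HP against ND, including Cyp4a14 by 1.95, Cyp4a10 by 1.5 and Cpt1a by 0.96, and 5 fell in HR against ND. Of 16 carbohydrate and lipogenic genes, the kind induced by feeding together with Angptl8, 6 rose and 2 fell in HP against ND. Thrsp, a lipogenic response gene, rose by 3.03 in HP and by 2.11 in HR (limma adjusted p = 0.00018 and 0.0049), and Fasn, which encodes fatty acid synthase, by 1.85 and 1.51 (limma adjusted p = 0.00075 and 0.0101). Among 17 ER stress genes 3 rose and 2 fell in HP against ND, close to the shares over all genes, and 6 rose in HR, with the smallest p for Manf, at 1.48 (limma adjusted p = 0.0030). Of 10 tested p53 and mitochondrial stress genes 6 rose and 1 fell in HP against ND, and 0 passed in HR against ND. Of 10 inflammation and injury genes 8 rose in HP against ND, with Lcn2 at 3.33, and 0 passed in HR against ND. Liver macrophage markers summed to 74.7 to 96.5 FPKM in ND, 81.9 to 122 in HP and 52.3 to 122 in HR, and neutrophil markers to 1.8 to 1.96, 5.01 to 6.28 and 1.83 to 6.15 FPKM, and their part in the members' differences was not tested.

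The likeness of members over the 9 liver libraries was described by Pearson's r of log2(FPKM + 1), on libraries that share groups. Gdf15 was most like Lect2 (0.93) and Tsku (0.88), and Tsku and Lect2 had 0.86. Fgf21 had 0.50 or less with every other member, and Ahsg and Fetub had 0.73. Among 6544 other genes, the nearest to Gdf15 were Atp6v0d1 (0.99), Taldo1, Msra and Rarres1. Nearest to Lect2 were Abcc3 (0.996), Nudt2, Gstt1 and Gamt, and to Tsku Saa4 (0.98), Nrn1, Tmem220 and Tmem38b. Angptl8 was nearest to Tmem134 (0.98), Gchfr, Rab24 and Wbp1, and Fgf21 to Ap3s1 (0.94), Rhod and Pxdc1. Fetub was nearest to Mrpl38 (0.99), Asgr2, Ang and Cfdp1, Ahsg to Hrg (0.94), Wdr11, Cyp4f13 and Abcg5, and Inhbe to Hnrnph3 (0.89), Senp3, Pltp and Cdk8.

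In eWAT the members were low. Over the 9 libraries Tsku averaged 5.32 FPKM, Gdf15 2.32, Angptl8 1.68 and Fgf21 1.42 FPKM, which is 5.52 to 18.3 times below liver. Fetub reached 5.88 FPKM in ND 1, the library with the most spermatid RNA, and 0.592 at most in the others. Ahsg was between 0.166 and 1.5 FPKM. Inhbe was listed at 0 in 8 of 9 libraries and Lect2 in 6 of 9. These 4 genes did not reach 1 FPKM in 3 eWAT libraries and were not tested there.

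Gdf15 was higher in HP than in ND in fat as in liver. It was at 0.729, 0.704 and 0.780 FPKM in ND, 5.00, 2.97 and 4.43 FPKM in HP and 3.65, 0.638 and 1.95 FPKM in HR. HP and ND did not overlap, and HR spanned both. HP minus ND was 1.54 on the log2(FPKM + 1) scale over 9 libraries (SE 0.42, limma adjusted p = 0.139) and 1.54 over 7 libraries (SE 0.28, limma adjusted p = 0.0101), and over 7 libraries it was called in all 16 alternatives. Without HR 2 alone the adjusted p over 8 libraries was 0.0329. Macrophage markers moved with it: they summed to 67.6 to 564 FPKM in ND, 4387 to 6099 in HP and 518 to 2307 in HR, and their part in the Gdf15 values was not tested.

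Tsku was at 3.94, 2.21 and 4.01 FPKM in ND, 5.95, 6.52 and 6.03 FPKM in HP and 9.37, 3.13 and 6.72 FPKM in HR. HP lay above ND, and HP minus ND was 0.74 over 9 libraries (limma adjusted p = 0.576) and 0.84 over 7 (limma adjusted p = 0.0475). Fgf21 was at 1.10, 2.06 and 2.42 FPKM in ND, 1.05, 0.669 and 0.694 FPKM in HP and 1.94, 1.49 and 1.35 FPKM in HR. Its FPKM in fat was thus below ND in HP, where in liver it was above. HP minus ND for Fgf21 was -0.64 over 9 libraries (limma adjusted p = 0.499) and -0.85 over 7 (limma adjusted p = 0.0377). After the length and GC correction it was 0.19 over 9 libraries (limma adjusted p = 0.902) and -0.84 over 7 (limma adjusted p = 0.0293). In liver the corrected value was 0.29 (limma adjusted p = 0.482). Over 7 libraries the Fgf21 and Tsku calls were each lost without HP 1, HP 2, HP 3, HR 1 or HR 3, Tsku also without ND 2 and Fgf21 also without ND 3, and both with the compared groups alone and with rescaling to the same sum. Angptl8 was at 0.766, 2.01 and 1.98 FPKM in ND, 2.35, 2.12 and 2.07 FPKM in HP and 1.86, 0.226 and 1.78 FPKM in HR, lowest in ND 1 and HR 2, and passed no test.

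**Figure D4:**
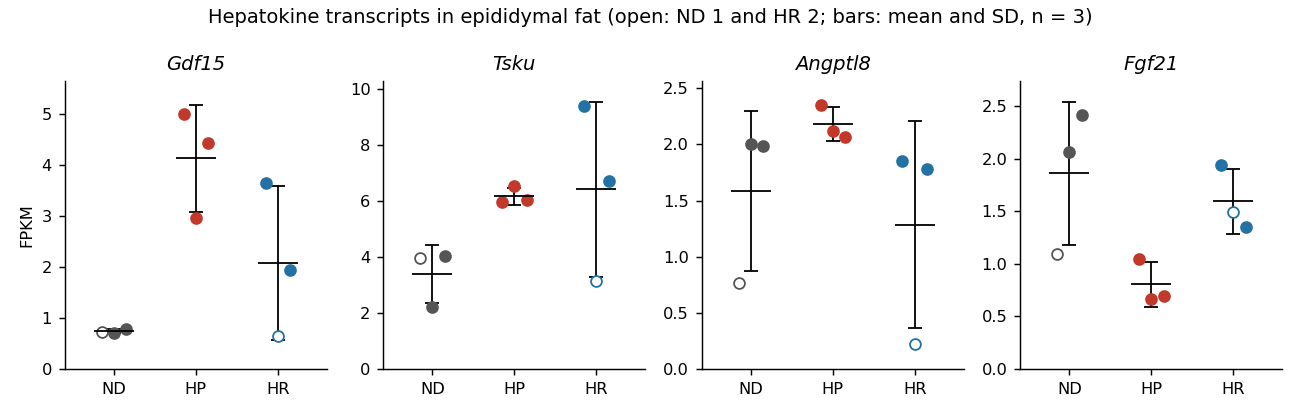
FPKM of the 4 members tested in epididymal fat, by group, with each library (points; ND 1 and HR 2 open) and the mean and SD of 3 libraries (bars). Gdf15 in HP (2.97 to 5.00 FPKM) is above every ND library, and Fgf21 in HP (0.669 to 1.05 FPKM) is below every ND library.

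Over 9 eWAT libraries limma called 0 of the 4 tested members in each comparison, where 2.11% of genes were called in HP against ND and 0% in the others, and Gdf15 in HP against ND was the 1 member with an unadjusted p under 0.05. Over 7 libraries 2 members rose and 1 fell in HP against ND, where 23.1% of genes were called, 15.7% higher and 7.4% lower. Over 7 libraries 0 passed in HR against ND (4.14% of genes; unadjusted p under 0.05 for Gdf15 and Tsku) and in HP against HR (6.46%; for Fgf21).

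The difference between the tissues, liver contrast minus eWAT contrast over all 18 libraries, was read for Gdf15, Tsku, Angptl8 and Fgf21, the 4 members tested in both tissues. In HP against ND it was positive and called for Gdf15 and Tsku, where 4.98% of 15006 genes were called and 0.886% were higher. It was 2.17 for Gdf15 (SE 0.44, limma adjusted p = 0.0112) and 1.89 for Tsku (SE 0.49, limma adjusted p = 0.0424). The other 4 members entered that fit through their liver levels alone, and of these Lect2 was called at 1.73 (SE 0.27, limma adjusted p = 0.0022). Lect2 was at most 0.0872 FPKM in eWAT, so this value restates its liver difference. For Fgf21 the difference was 1.47 (SE 0.43, limma adjusted p = 0.0648), and without eWAT ND 1 and HR 2 it was 1.68 (limma adjusted p = 0.0071). In HR against ND and in HP against HR limma called 0 of all 8 members (0.06% and 0.0733% of genes), with unadjusted p under 0.05 for 3 and 4 members. Without eWAT ND 1 and HR 2 limma called Gdf15, Tsku, Fgf21, Lect2 and Ahsg in HP against ND (27.9% of genes), Lect2 in HR against ND (7.16%) and Gdf15, Fgf21 and Ahsg in HP against HR (10.1%). All of these were positive except Ahsg, at -0.71 in HP against ND and -0.95 in HP against HR on the log2 scale. In liver alone the Ahsg differences were 0.04 and -0.29, and neither passed. The rest of both values comes from eWAT, where Ahsg was at most 1.5 FPKM and too low to be tested.

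Receptor genes in fat were read over 7 libraries, where 4 of 24 tested genes rose and 5 fell in HP against ND, beside 15.7% and 7.4% of all genes. Klb was at 28.3 and 27.2 FPKM in ND, 6.89, 8.0 and 6.04 FPKM in HP and 14.0 and 17.0 FPKM in HR. The 3 groups did not overlap, and Klb fell by 1.86 against ND (SE 0.16, limma adjusted p = 0.00048) and by 1.05 against HR (limma adjusted p = 0.0224). Fgfr1, its partner receptor in fat, was at 75.3 to 106 FPKM and differed by -0.29 (limma adjusted p = 0.136).

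Acvr1c, the activin E receptor, was at 46.9 and 32.3 FPKM in ND, 7.24, 10.2 and 8.64 FPKM in HP and 12.7 and 19.5 FPKM in HR. It fell by 2.06 in HP against ND (SE 0.25, limma adjusted p = 0.0020), while HR minus ND was -1.25 (limma adjusted p = 0.0591). In liver Acvr1c was at most 0.0400 FPKM. Insr fell by 1.26 and Met by 1.48, and the activin subunit gene Inhbb rose by 1.05 (limma adjusted p 0.0020 to 0.0030). Over all 9 libraries limma called 0 of the 24 genes, with unadjusted p under 0.05 for Inhbb, Fst and Tgfbr1. There Klb was -0.51 (limma adjusted p = 0.817), Acvr1c -0.65 (0.772), Insr -0.29 (0.858), Met -0.48 (0.762) and Inhbb 1.54 (0.178), and Fgfr1 was 0.99 (0.644), of opposite sign to its value over 7. Adipocyte markers over the 7 libraries summed to 20432 and 31831 FPKM in ND, 16760 to 19205 in HP and 21488 and 24855 in HR, and their part in these falls was not tested.

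**Figure D5:**
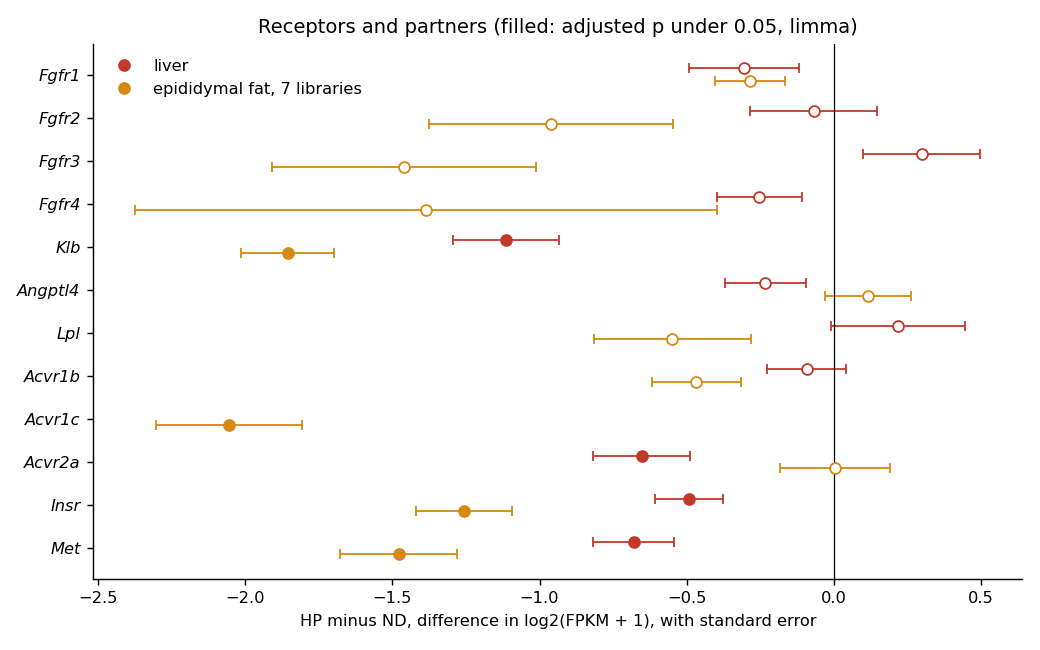
HP minus ND in log2(FPKM + 1) with standard errors (horizontal axis) for 12 receptor and partner genes in liver and in 7 epididymal fat libraries; filled points have limma adjusted p under 0.05. Klb, Insr and Met are filled and below 0 in both tissues.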

How the data were processed

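The authors deposited FPKM values for 18 libraries. Per the labels' protocols, TRIzol RNA and a TruSeq mRNA kit were used. The tools listed are Cufflinks 2.1.1, STAR 2.4.0 and CASAVA 1.8.2, per the submitters' processing notes. The sources used here give no tool settings, genome build, annotation or strand mode. FPKM carries no total count, so no counting interval was given. Each value is relative to the other RNA of its library.

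Of 23474 identifiers, 22671 were named, with length and GC content, from GENCODE M21. The test was limma 3.58.1 (R 4.3.3) on log2(FPKM + 1) (two-sided, with a variance trend), over genes at 1 FPKM or more in at least 3 libraries of the fit. P-values were adjusted by Benjamini-Hochberg over all genes tested, at a threshold of 0.05. Such differences understate the change of low genes. The 3 groups of a tissue shared a fit, and the tissue difference used all 18 libraries. Nothing in the labels says that libraries are separate mice, so the spread behind the p-values is that of these samples and may be technical.

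The members and gene lists were chosen with earlier results of these data known. All 8 members were named in each comparison, with the 4 genes most like each in liver by Pearson's r among genes of at least 5 FPKM, their receptors and partners, and up to 4 called genes of each list, and some genes under this rule are not reported here. Alternatives were a pseudocount of 0.1, no filter, quantile normalization, rescaling, a length and GC correction, no variance trend, the compared groups alone, left-out libraries, and a block for the replicate number. With simulated data in which log2 values moved by 1, the liver test called 90% of the moved genes. The eWAT test called 0% of such genes over 9 libraries and 45% over 7. The moved genes were drawn from higher levels than those of Gdf15, Angptl8 and Fgf21 in eWAT. These rates therefore do not apply to those members there, and Tsku in eWAT lay close to the lower limit of those levels. Each simulation moved 200 genes, with noise drawn separately for each gene. In the data 31.7% of genes were called in liver HP against ND, so the rates may differ there.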

Additional observations from a re-analysis of the deposited data

Results flagged for a closer look

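Of the effects compared between tissues, 3 passed the test of the difference itself. The HP minus ND difference was larger in liver than in eWAT by 2.17 on the log2(FPKM + 1) scale for Gdf15 (SE 0.44, limma adjusted p = 0.0112), by 1.89 for Tsku (SE 0.49, limma adjusted p = 0.0424) and by 1.73 for Lect2 (SE 0.27, limma adjusted p = 0.0022). Lect2 was at most 0.0872 FPKM in eWAT and entered this test through its liver level, so its value restates the liver difference. All 3 HP liver libraries lay above all 3 ND liver libraries for each of these genes. For Tsku the call was lost without any library except liver ND 2 and eWAT ND 2, HR 1 and HR 2 (limma adjusted p 0.0516 to 0.106). After the length and GC correction the difference was 1.43 for Gdf15 (limma adjusted p = 0.302) and 0.56 for Lect2 (limma adjusted p = 0.622). The Gdf15 call was also lost with a pseudocount of 0.1, rescaling to the same sum and the replicate block (limma adjusted p 0.0556 to 0.0949). Lect2 was also lost with that pseudocount (limma adjusted p = 0.0808). Tsku was also lost with no filter, that pseudocount, the replicate block, rescaling and quantile normalization (limma adjusted p 0.0505 to 0.194).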

How the results depend on the processing

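No call turned its direction in the alternatives that were run. Among 1464 values of single members, 84 lost a call, 22 gained one and 1358 kept their side of the threshold, and a value that passed in neither analysis was counted as kept whatever its sign. In liver, members called in HP against ND went from 5 to 3 with no filter on low values and with the length and GC correction. Those in HP against HR went from 3 to 1 with no filter. Over 7 eWAT libraries, those in HP against ND went from 3 to 1 with rescaling to the same sum and with the compared groups alone, and those in HR against ND from 0 to 1 (Tsku) with quantile normalization and with the length and GC correction. For the tissue difference in HP against ND the count of 3 became 1 (Tsku) with the length and GC correction. With a pseudocount of 0.1 it was also 1, but Gdf15, Tsku and Lect2 were all lost (limma adjusted p 0.0808 to 0.0985). The member called there was Ahsg, at -1.77 (limma adjusted p = 0.0167), which was too low in eWAT to be tested there. Without eWAT ND 1 and HR 2 the count of 3 became 5, and the counts of 0 became 1 in HR against ND and 3 in HP against HR.

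Leaving out each library in turn gave 3 to 6 members in liver HP against ND, 2 to 4 in HR against ND and 1 to 3 in HP against HR. In eWAT it gave 0 to 1 in HP against ND over 9 libraries, and 1 to 2 in HP against ND and 0 to 1 in HR against ND over 7. For the tissue difference it gave 2 to 4 in HP against ND and 0 to 1 in HP against HR. A fit left with 1 library in a group assumes that it varies like the others.

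The deviations of same-numbered libraries from their group means correlated at -0.35 to 0.43 in liver and -0.84 to 0.62 in eWAT. Between liver and eWAT of the same group and number they correlated at -0.24 to 0.28. The labels do not say what the numbers stand for, and the eWAT values include ND 1 and HR 2. These correlations cannot decide whether the numbers pair samples. With the replicate number as a block, the count over 7 eWAT libraries in HP against ND was 1, with or without the length and GC correction, and the tissue difference in HP against ND was 1. The block with that correction gave 1 in liver HP against HR.

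Rescaling to the same sum moved the median liver difference of all genes in HP against ND from -0.02 to -0.20. Depth in fragments is unknown, and precision is limited by 3 libraries per group. The low eWAT levels and the spermatid RNA of ND 1 and HR 2 limit what can be detected there.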
